A study of Mus musculus with 4 samples.

Results

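The 37 genes of the mouse mitochondrial genome were followed in mammary tumours with 1 or 2 intact copies of Elf5. A row of the count table was taken where its Ensembl identifier, without its version, carries a symbol starting with mt- in the GENCODE M21 annotation of GRCm38. All 37 were in the table of 51826 genes: 13 protein-coding genes, 2 ribosomal RNA (rRNA) genes and 22 transfer RNA (tRNA) genes. Each of the 37 passed the filter on low counts, which left 21607 genes in the test.

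The HET group was 2 breast tumours of genotype Elf5+/-, and the WT group was 2 breast tumours of genotype Elf5+/+. All 4 tumours were C3-T+, so neither group is free of that background. ELF5 is an ETS-family transcription factor of luminal progenitors and milk-producing alveolar cells, and the study asks what differs in tumours with 1 copy of it. The tumours were digested, and cells were sorted with antibodies against CD45, CD31 and TER119, which mark leukocytes, endothelial cells and erythroid cells. Total RNA of the tumour-enriched cells was then sequenced. Age, strain and the way the Elf5 allele was made are not known from the labels. The titles of both HET libraries share 1 number and differ in T1 and T2, so they may be 2 tumours of 1 mouse. The number in the title of WT 1 directly precedes that number, and the number of the library labelled WT 2 is far from both. What these numbers stand for is not known, and an effect of litter or batch was not tested. The p-values below measure only the spread between these 4 libraries.

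The mitochondrial genome is a small circle of DNA present in many copies per cell. Both strands are transcribed into long precursors by the polymerase POLRMT with the factors TFAM and TFB2M, and the precursors are cut mainly at the tRNAs that lie between the other genes. The mRNAs encode subunits of respiratory complexes I, III, IV and V, and all other subunits come from nuclear genes. Stretches of mitochondrial DNA have also moved into nuclear chromosomes, where they are annotated as pseudogenes.

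The libraries held 12695132 to 15307939 estimated counts. Across all genes, 0 of 21607 passed an adjusted p of 0.05 (edgeR quasi-likelihood test, Benjamini-Hochberg). Elf5 stood at 5.39 and 10.6 CPM (counts after every library was scaled to the same size, with TMM factors) in HET. It stood at 35.6 CPM in WT 1 and 4.70 CPM in the library labelled WT 2. The latter was below both HET libraries despite its label, and whether the label is right was not tested. The log2 fold change of Elf5, HET over WT, came to -1.33 ± 0.92 (SE, adjusted p = 0.986) and to 0.76 without WT 1. Epithelial markers summed to 2488 and 2227 CPM in HET and to 3625 and 3337 CPM in WT. Macrophage and fibroblast markers set 1 library apart. In the library labelled WT 2, macrophage markers summed to 43.4 CPM against 594 to 925 CPM elsewhere, and fibroblast markers to 21790 CPM against 3949 to 6556 CPM. Leukocyte markers summed to 424 and 332 CPM in HET and to 340 and 145 CPM in WT, T cell markers to 54.4 and 68.7 CPM in HET and to 22.7 and 12.96 CPM in WT. Endothelial markers summed to 306 and 527 CPM in HET and to 365 and 71.6 CPM in WT, and erythroid markers to 5.52 and 15.7 CPM in HET and to 5.33 and 1.64 CPM in WT. Adipocyte markers summed to 73.4 and 91.7 CPM in HET and to 45.7 and 10.5 CPM in WT, and skeletal muscle markers to 6.95 and 4.45 CPM in HET and to 14 and 2.14 CPM in WT. No list had a marker at 0 in every library. Between genotypes, the T cell, adipocyte and erythroid sums were higher in HET without overlap, and the fibroblast and epithelial sums lower. The other marker sums overlapped. The part of these cells in the values below was not tested. In bulk RNA, fewer cells of a type and less RNA per cell cannot be told apart.

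Several mitochondrial genes have nuclear copies that are nearly the same letter by letter. A search of the annotated transcripts found 11 nuclear pseudogenes with at least 95% identity to a mitochondrial gene over at least 80% of their own length, and they copied 9 of the 37 genes. Of these, 7 lie in 1 block on the minus strand of chromosome 1 (GRCm38), from Gm28439 (chr1:24611535-24612410) to Gm29216 (chr1:24615706-24616197). They run through mt-Nd4, mt-Nd4l, mt-Nd3, mt-Co3, mt-Atp6, mt-Co2 and the 3′ part of mt-Co1. Another 3 lie on chromosome 2 (Gm13341, Gm13340 and Gm13339, copies of mt-Co2, mt-Co1 and mt-Nd2), at 95.91 to 97.61% identity, and 1 on chromosome 13 (Gm4076, a copy of mt-Nd5, 95.18%). The annotated copy of mt-Atp6, Gm10925 (chr1:24613974-24614651), is identical over its whole length of 678 bases. It ends before the last 3 bases of mt-Atp6 (ENSMUSG00000064357, chrM:7927-8607), shown in capitals in the 3′ ends of both, from base 642. The copies of mt-Co2 and mt-Co3 differ from their genes in the same way, and their 3′ ends are given from base 645 and base 745.

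mt-Atp6: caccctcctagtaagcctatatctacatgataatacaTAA
Gm10925: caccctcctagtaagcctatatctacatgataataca
mt-Co2: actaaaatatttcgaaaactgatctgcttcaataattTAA
Gm28661: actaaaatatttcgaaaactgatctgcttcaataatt
mt-Co3: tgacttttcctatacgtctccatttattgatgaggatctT
Gm28437: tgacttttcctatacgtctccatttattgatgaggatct

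A read that lies within the lower-case bases, or anywhere upstream within these 3 genes, has no letter that tells the gene from its copy. The copy of mt-Nd3 has a single substitution, T3C, where the mitochondrial base comes first, the position is counted from base 1 of the mitochondrial gene and the base of the copy comes last. The copy of the 3′ part of mt-Co1 has A1066T over its aligned bases, and its bases before base 10 could not be aligned. The first 40 bases of mt-Nd3 and Gm28438, and the first 40 bases of Gm29216 opposite bases 1054 to 1093 of mt-Co1, have the differing letters in capitals. All of these sequences are from the GENCODE M21 transcripts of GRCm38.

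mt-Nd3: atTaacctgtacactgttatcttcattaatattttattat
Gm28438: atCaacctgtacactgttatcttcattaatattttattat
mt-Co1: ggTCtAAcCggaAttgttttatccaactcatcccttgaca
Gm29216: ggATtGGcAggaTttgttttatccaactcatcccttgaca

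The share of each gene that is its own was measured as the percent of its 31-base words found in no other annotated transcript. The percent was 0 for mt-Co2, 0.1 for mt-Co3, 0.5 for mt-Atp6, 1.1 for mt-Nd4l and 1.9 for mt-Nd3. It was 36.1 for mt-Co1 and 37.2 for mt-Nd4, then 83.2 for mt-Nd5 and 86.5 for mt-Nd2. The rest of the mRNA and rRNA genes stood between 92.5 (mt-Atp8) and 100 (mt-Rnr1 and mt-Nd1). Of the tRNA genes, only mt-Ty was below 100, at 89.2.

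mt-Atp6, a subunit of the proton channel of ATP synthase (complex V), had the widest spread of the mRNAs as deposited. It stood at 376 CPM in HET 1 and 2146 CPM in HET 2, against 2322 in WT 1 and 1254 in the library labelled WT 2. Its copy Gm10925 stood at 3143 and 1255 CPM in HET, against 246 and 1667 CPM in WT. The copy was high where the gene was low in each of the 4 libraries, and HET 1 had the lowest gene and the highest copy. Of the counts given to the pair, the copy took 89.3% (95% Wilson interval 89.1 to 89.6) in HET 1 and 36.9% (36.5 to 37.3) in HET 2, against 9.59% (9.28 to 9.92) in WT 1 and 57.1% (56.6 to 57.5) in the library labelled WT 2. Gene and copy together stood at 3519 and 3402 CPM in HET, against 2568 and 2921 CPM in WT, and the genotypes did not overlap. The highest library was 6.17 times the lowest as deposited and 1.37 times the lowest after the sum. The log2 fold change was -0.50 ± 0.80 as deposited and 0.33 ± 0.36 for the sum (SE, adjusted p = 0.986 for each), so the direction turned and neither passed.

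mt-Co2, a copper-binding subunit of cytochrome c oxidase (complex IV), stood at 665 and 1652 CPM in HET, against 1713 and 1050 CPM in WT. Its chromosome 1 copy Gm28661 held 7692 counts in HET 1 and 291 in HET 2, against 0 in WT 1 and 1 in the library labelled WT 2. The copy took 42.9% (42.1 to 43.6) of the pair in HET 1 and 1.29% (1.15 to 1.45) in HET 2. With both copies added, mt-Co2 stood at 1165 and 1674 CPM in HET, against 1713 and 1050 CPM in WT. HET 1 stayed below HET 2 and WT 1 after the sum, and the highest library was 1.63 times the lowest, against 2.57 times as deposited. The log2 fold change was -0.25 ± 0.53 as deposited and 0.04 ± 0.41 for the sum.

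Counts that HET 1 gave to the chromosome 1 block were not limited to these genes. The copy of mt-Co3, Gm28437, held 689 counts in HET 1 and 3 in HET 2, against 0 in each WT library, although mt-Co3 and this copy have the same letters over 783 bases. The copy of mt-Nd4l, Gm10222, held 41 counts in the library labelled WT 2 and 0 in the other 3 libraries. The copy of mt-Nd4, Gm28439, is identical to its gene over 876 bases and held 0 counts in all 4 libraries. By counting error alone this allows up to 3 counts in each. That limit does not cover how counts were divided between gene and copy. Identical pairs were thus divided differently from gene to gene and from library to library in the deposited estimates. The cause of these divisions was not tested.

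For mt-Nd3, a complex I subunit, most counts stood under the copy in every library. mt-Nd3 held 108 and 229 counts in HET, against 337 and 120 in WT. Gm28438 held 1368 and 1757 counts in HET, against 1371 and 1235 in WT, which is 92.7% and 88.5% of the pair in HET and 80.3% and 91.1% in WT. The sum stood at 95.8 and 147 CPM in HET, against 136 and 96.5 CPM in WT, with a log2 fold change of -0.56 ± 0.68 as deposited and 0.07 ± 0.35 for the sum. For mt-Co1, the catalytic core of cytochrome c oxidase, the partial copy Gm29216 took 21.6% and 27.3% of the pair in HET, against 25.5% and 20.4% in WT. Its share thus varied less than that of Gm10925.

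**Figure D1:**
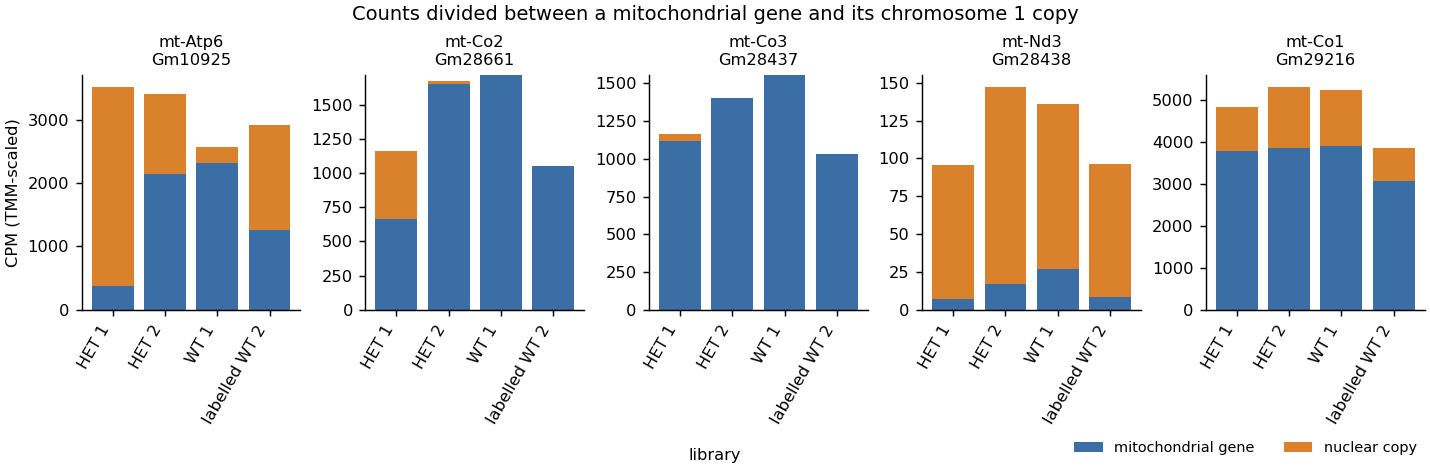
Stacked bars give CPM (TMM-scaled) of a mitochondrial gene (blue) and of its chromosome 1 copy (orange) in HET 1, HET 2, WT 1 and the library labelled WT 2, each panel on its own axis from 0. The copy of mt-Atp6 takes between 9.59% and 89.3% of the pair, while the bars of the pair differ by at most 1.37 times.

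Across the 15 mRNA and rRNA genes, the 3 with a highest library over 2 times the lowest were mt-Atp6 (6.17), mt-Nd3 (3.82) and mt-Co2 (2.57), and all 3 had under 2% of words of their own. mt-Co3 and mt-Nd4l, also under 2%, stood at 1.5 and 1.37. The genes with over 80% of words of their own stood between 1.15 (mt-Nd5) and 1.57 (mt-Atp8). A low share of own words thus went with both wide and narrow spreads.

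**Figure D2:**
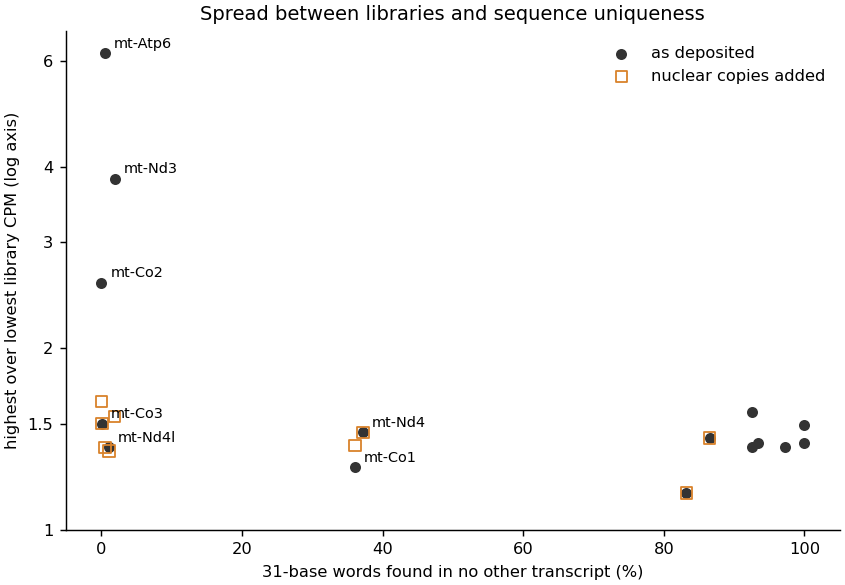
Each point is 1 of the 15 mRNA and rRNA genes, with the percent of its 31-base words found in no other transcript on the x axis and the highest over the lowest library CPM on the y axis (log). Filled points are counts as deposited and open squares have the nuclear copies added, between 1.15 and 1.63 for the 9 genes with a copy. The spread narrows most for mt-Atp6, mt-Nd3 and mt-Co2 and widens for mt-Co1 (1.27 to 1.38).

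With copies added, the 13 mRNAs kept a similar order of level per kilobase in the 4 libraries. mt-Atp6 ranked first in each, at a mean of 4556 CPM per kilobase (range 3771 to 5167), mt-Co1 second (3122, 2503 to 3454) and mt-Co2 next (2048, 1535 to 2505). mt-Atp8 (1645) and mt-Co3 (1643) changed places between libraries and mt-Cytb, the complex III subunit cytochrome b, followed at 1444 CPM per kilobase. The complex I subunits mt-Nd1, mt-Nd6, mt-Nd4l, mt-Nd2 and mt-Nd4 stood between 961 and 1135 CPM per kilobase and exchanged ranks from library to library. mt-Nd5 ranked twelfth (696, 662 to 762) and mt-Nd3 last (342, 275 to 424) in all 4 libraries. The ranges of neighbours over the 4 libraries overlapped at every step from mt-Co1 to mt-Nd4. Those of mt-Atp6 and mt-Co1, of mt-Nd4 and mt-Nd5, and of mt-Nd5 and mt-Nd3 did not. As deposited, mt-Atp6 stood at 552 CPM per kilobase in HET 1 and at 1842 to 3410 in the other libraries. These values are per annotated gene length, and mt-Atp6 shares 43 bases with mt-Atp8.

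**Figure D3:**
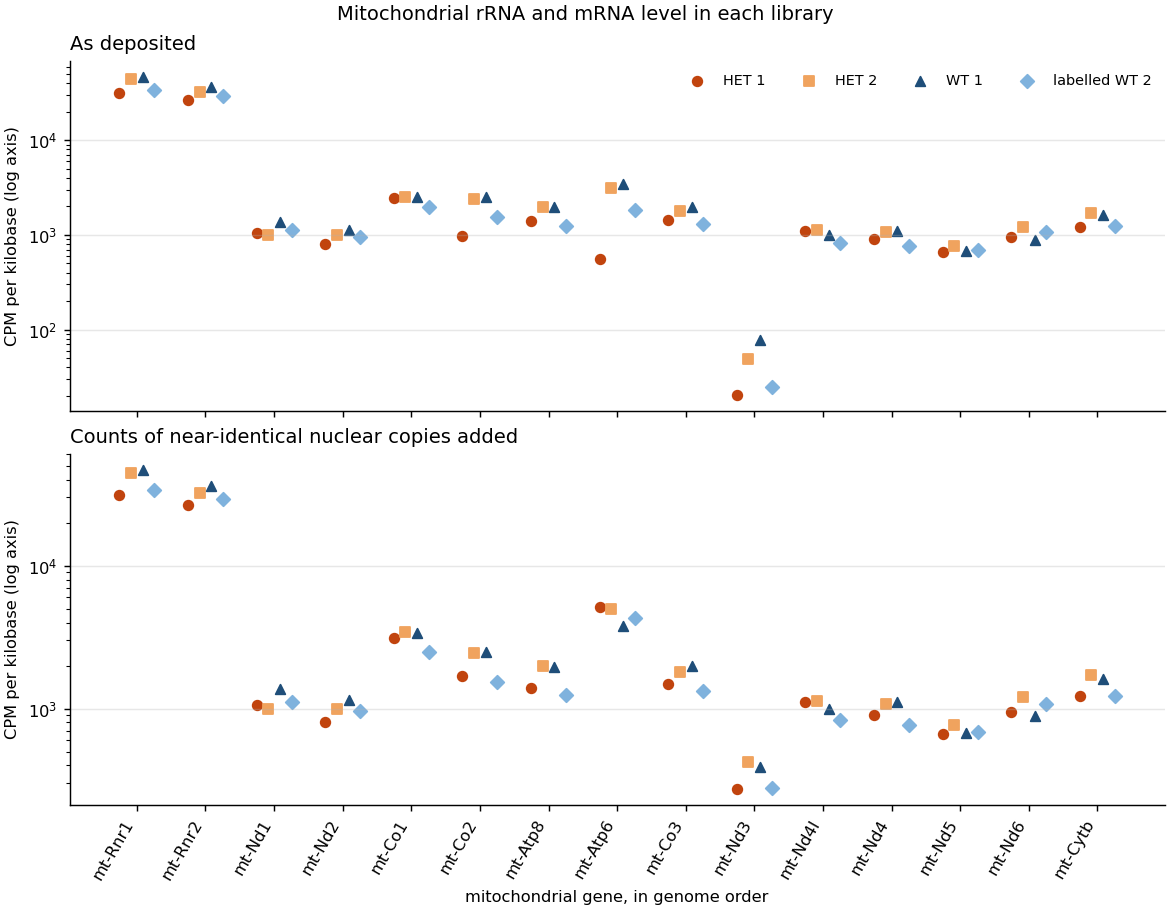
CPM per kilobase (log axis) of the 2 rRNA and 13 mRNA genes in genome order, with HET 1 (circle), HET 2 (square), WT 1 (triangle) and the library labelled WT 2 (diamond) for each gene, as deposited above and with nuclear copies added below. mt-Atp6 in HET 1 stands at 5167 CPM per kilobase with its copy and at 552 without it.

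In the test of HET against WT, 0 of the 37 mitochondrial genes passed, beside 0% of all genes tested, and DESeq2 and limma-voom also called 0 of them. At an unadjusted p under 0.05, 2 of 37 were lower in HET (mt-Tq and mt-Tg), beside a background of 1.83% of all genes, and 0 of 37 were higher, beside 1.95%. Among the 37, the genotypes did not overlap for 4 genes higher in HET, beside 19.6% of all genes tested, and for 6 genes lower in HET, beside 15.9%. The share of the 37 was below the background in the higher direction and near it in the lower.

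Of the 13 mRNAs as deposited, 7 had a log2 fold change above 0 and 6 below, with a median of 0.04, the same as the median of 0.04 over all genes tested. With copies added, 10 stood above 0 and 3 below, with a median of 0.07. The genotypes then did not overlap for mt-Atp6 and mt-Nd4l, higher in HET, and for mt-Nd1, lower in HET. mt-Nd4l, a membrane subunit of complex I, stood at 329 and 335 CPM in HET, against 295 and 245 CPM in WT as deposited (log2 0.30 ± 0.30). mt-Nd1, a core subunit of complex I, stood at 1008 and 952 CPM in HET, against 1319 and 1065 CPM in WT (log2 -0.28 ± 0.34). These gaps were within 1 SE of 0 or close to it, and each adjusted p was 0.986.

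The other mRNAs showed the same 2 libraries high and the same 2 low more often than a difference between genotypes. mt-Cytb stood at 1401 and 1950 CPM in HET, against 1847 and 1408 CPM in WT (log2 0.04 ± 0.38). mt-Co3, a core subunit of complex IV, stood at 1117 and 1405 CPM in HET, against 1552 and 1033 CPM in WT (log2 -0.04 ± 0.38). HET 2 and WT 1 were the higher libraries of their genotypes for both genes. mt-Nd4 stood at 1243 and 1480 CPM in HET, against 1524 and 1051 CPM in WT (log2 0.08 ± 0.37). mt-Atp8, an accessory subunit of ATP synthase, stood at 283 and 403 CPM in HET, against 401 and 256 CPM in WT (log2 0.06 ± 0.37). mt-Nd2 stood at 829 and 1027 CPM in HET, against 1177 and 996 CPM in WT (log2 -0.23 ± 0.34). In each of these genes the genotypes overlapped. mt-Nd5 varied least, at 1207 and 1389 CPM in HET, against 1222 and 1257 CPM in WT (log2 0.07 ± 0.33). mt-Co1, with copies added, stood at 4836 and 5336 CPM in HET, against 5254 and 3867 CPM in WT (log2 0.16 ± 0.40).

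With copies added, the deviation of a gene from its mean over the 4 libraries was above 0 for 3 of 13 mRNAs in HET 1 and 12 of 13 in HET 2, against 9 of 13 in WT 1 and 1 of 13 in the library labelled WT 2. Summed over the genes of complex I, levels were 5207 and 5971 CPM in HET, against 6136 and 5280 CPM in WT. Those of complex IV were 7162 and 8416 CPM in HET, against 8520 and 5950 CPM in WT. Complex V departed from this. Its 2 genes summed to 3802 and 3805 CPM in HET, against 2969 and 3177 CPM in WT, and the genotypes did not overlap (exact two-sided permutation p = 0.333, with 0.33 the smallest possible). This rested on mt-Atp6 with its copy, at 3519 and 3402 CPM in HET, against 2568 and 2921 CPM in WT. mt-Atp8 stood at 283 and 403 CPM in HET, against 401 and 256 CPM in WT, and overlapped. Per kilobase with copies added, mt-Atp6 over mt-Atp8 was 3.73 and 2.53 in HET, against 1.92 and 3.42 in WT, and overlapped. The 2 genes of the sum thus did not move together from library to library. As deposited, the complex V sums were 659 and 2549 CPM in HET, against 2723 and 1510 CPM in WT, and the genotypes overlapped.

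**Figure D4:**
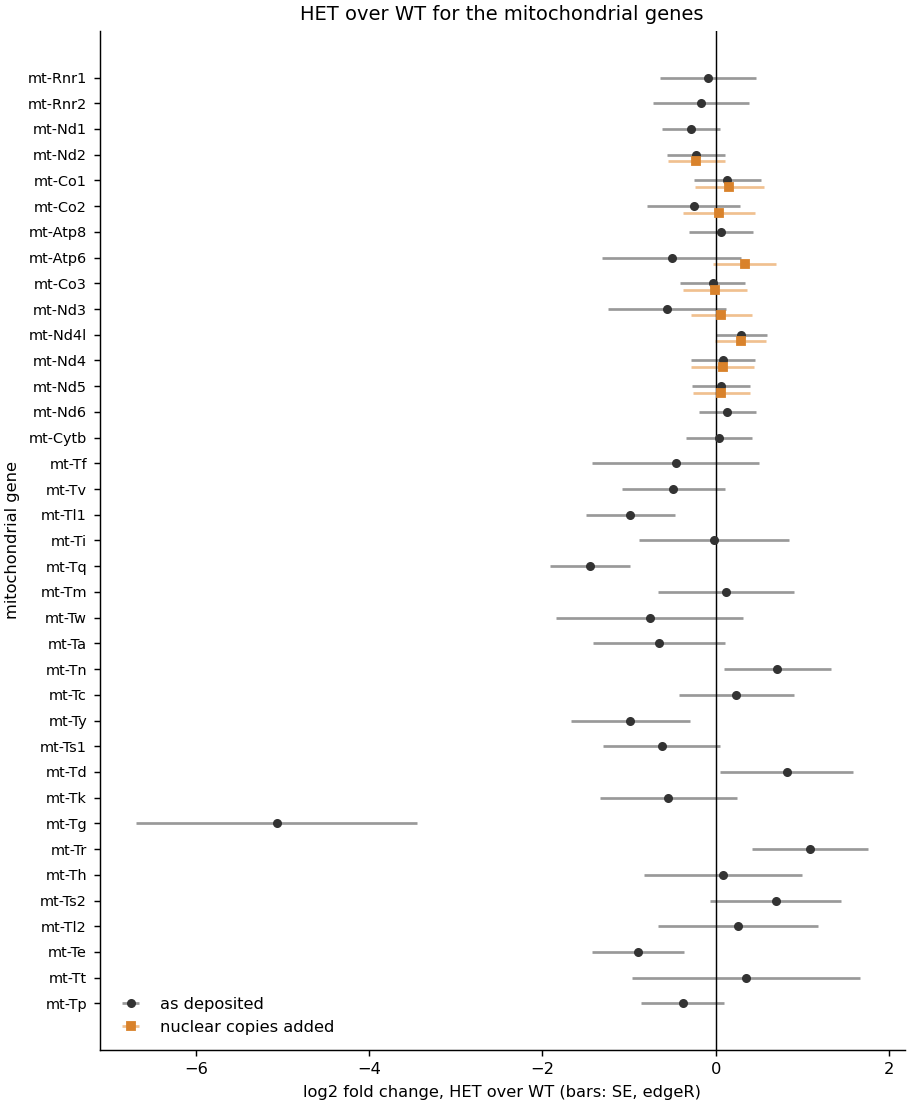
Log2 fold change of HET over WT with its SE (edgeR) for the 37 mitochondrial genes, rRNA above, then mRNA, then tRNA, as deposited (black circles) and with nuclear copies added (orange squares). The mRNA values lie between -0.56 and 0.30 as deposited, and mt-Tg at -5.07 stands apart from the other genes.

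Mitochondrial rRNA made up most of the mitochondrial counts. Whether rRNA was removed before sequencing is not stated here, and its part in the rRNA values, shares and ratios was not tested. mt-Rnr1, the 12S rRNA of the small ribosomal subunit, stood at 29770 and 42600 CPM in HET, against 44460 and 32570 CPM in WT (log2 -0.09 ± 0.56). mt-Rnr2, the 16S rRNA of the large subunit, stood at 41780 and 50700 CPM in HET, against 57410 and 46550 CPM in WT (log2 -0.17 ± 0.56). Both were high in HET 2 and WT 1, low in HET 1 and the library labelled WT 2, and both directions turn without TMM scaling (0.09 for mt-Rnr1 and 0.01 for mt-Rnr2), which moves the median of all genes by 0.18. The ratio of 16S to 12S per kilobase was 0.847 and 0.718 in HET, against 0.780 and 0.863 in WT, and the genotypes overlapped (exact two-sided permutation p = 0.667).

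As a share of all counts, the 37 genes took 8.91% and 11.8% in HET, against 11.5% and 8.502% in WT. The means were 10.3% ± 2.01 in HET and 9.98% ± 2.09 in WT (SD, n = 2 each; exact two-sided permutation p = 0.667). With TMM-scaled libraries the shares were 8.44% and 11.1% in HET, against 11.99% and 9.27% in WT, so the order of the means depended on the scaling. The mRNAs alone took 1.35% and 1.83% in HET, against 1.70% and 1.22% in WT, and with copies added 1.86% and 2.14% in HET, against 1.86% and 1.45% in WT. The 95% Wilson intervals of the rRNA, mRNA and tRNA shares reached at most 0.016 percentage points to either side. For rRNA and mRNA this was far below the gap between libraries of 1 genotype, whereas the tRNA intervals of the WT libraries overlapped.

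The ratio of rRNA to mRNA counts was 5.62 and 5.41 in HET, against 5.74 and 5.97 in WT. With copies added it was 4.07 and 4.63 in HET, against 5.23 and 5.003 in WT. By counts, HET was lower without overlap in both cases (log2 -0.09 and -0.23; exact two-sided permutation p = 0.333 for each, with 0.33 the smallest possible). Taken per kilobase as deposited, the ratio was 4.27 and 3.88 in HET, against 4.09 and 4.34 in WT, and the genotypes overlapped (log2 -0.05, exact two-sided permutation p = 0.667). Per kilobase with copies added, it was 2.90 and 3.34 in HET, against 3.80 and 3.56 in WT. HET was then lower without overlap (log2 -0.24, exact two-sided permutation p = 0.333). The count ratio of HET 1 is the one most altered by the copies, since this library gave the most counts to Gm10925 and Gm28661. All of these ratios have the limit given above on removal of rRNA.

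mt-Nd6, a complex I subunit, is the only mRNA on the minus strand of the reference, where its precursor comes from the opposite promoter to that of the other 12. It stood at 490 and 629 CPM in HET, against 458 and 562 CPM in WT (log2 0.13 ± 0.33). Relative to the median of the other 12 mRNAs per kilobase, it stood at 0.932 and 0.856 in HET, against 0.590 and 0.924 in WT, with WT 1 below the other 3 libraries (log2 0.24; exact two-sided permutation p = 0.667). With copies added the ratio was 0.810 and 0.856 in HET, against 0.590 and 0.924 in WT (log2 0.14). Relative to the mean of the 12 with copies added, it was 0.600 and 0.669 in HET, against 0.506 and 0.774 in WT, and the log2 value was -0.01. WT 1 thus had the lowest mt-Nd6 of the 4 libraries while standing above the mean for 9 of the 13 mRNAs. Against mt-Nd5, whose 3′ end it overlaps on the opposite strand, mt-Nd6 per kilobase stood at 1.43 and 1.59 in HET, against 1.32 and 1.57 in WT. Whether the libraries keep strand is not known from the labels, so reads over that overlap could belong to either gene. Elsewhere in mt-Nd6, without strand information, reads of the precursor from the opposite strand could likewise be counted as mt-Nd6. The ratios of mt-Nd6 above have the same limit.

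The 22 tRNA genes are 59 to 75 bases long and took 0.00996% and 0.0241% of counts in HET, against 0.0296% and 0.0297% in WT (exact two-sided permutation p = 0.333). HET was lower without overlap, and the sums were 1452 and 3055 counts in HET, against 3890 and 4549 in WT. This rested on mt-Tg in the library labelled WT 2: without that gene the share was 0.00966% and 0.0238% in HET, against 0.0293% and 0.0145% in WT, and the genotypes overlapped (exact two-sided permutation p = 0.667). A few genes carried these sums, and the strands are described apart. Whether the tRNA counts come from mature tRNAs or from longer precursors was not tested.

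On the plus strand, 14 tRNA genes summed to 360 and 321 counts in HET, against 366 counts in WT 1 and 2620 counts in the library labelled WT 2. The excess in the last was 1 gene, mt-Tg (tRNA for glycine, ENSMUSG00000064359, chrM:9391-9458), which lies between mt-Co3 and mt-Nd3. mt-Tg held 44 and 29 counts in HET, against 42 counts in WT 1 and 2328 counts in the library labelled WT 2. Its log2 fold change was -5.07 ± 1.62 (adjusted p = 0.986), and -0.41 without the library labelled WT 2, so 1 library decided the value. It passed without WT 1, where that library alone stands for WT (adjusted p = 0.00293). Its 31-base words are found in no other annotated transcript, and its whole sequence is given because this value rests on these bases alone.

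mt-Tg: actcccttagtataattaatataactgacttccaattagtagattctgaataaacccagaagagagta

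Without mt-Tg, the plus-strand tRNAs summed to 316 and 292 counts in HET, against 324 and 292 counts in WT, and the genotypes overlapped. The neighbours of mt-Tg were not high in that library: mt-Co3 was at its lowest there, at 1033 CPM, and mt-Nd3 with its copy at 96.5 CPM, close to the lowest of 95.8 CPM in HET 1. The median plus-strand tRNA gene held 25 and 17.5 counts in HET, against 21.5 and 14 counts in WT, so single genes carry large counting error. mt-Tr (tRNA for arginine) held 35 and 30 counts in HET, against 13 and 15 in WT (log2 1.09 ± 0.67). mt-Td (aspartate) held 37 and 16 counts in HET, against 13 and 14 in WT, and mt-Ts2 (serine) 25 and 19 in HET, against 10 and 15 in WT. mt-Tl1 (leucine), at the end of the rRNA unit, held 42 and 38 counts in HET, against 74 and 72 in WT (log2 -0.99 ± 0.51). The genotypes did not overlap for these 4 genes, and each adjusted p was 0.986.

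The other plus-strand tRNAs overlapped between genotypes. mt-Tv (valine), which lies between the 2 rRNA genes, held 35 and 56 counts in HET, against 46 and 75 in WT, and mt-Tm (methionine) 24 and 36 in HET, against 12 and 41 in WT. mt-Ti, mt-Tk and mt-Tl2 held 13 to 35 counts in HET, against 8 to 32 in WT. mt-Tf, mt-Tw, mt-Th and mt-Tt held 5 to 20 counts in HET, against 2 to 30 in WT. The SEs of these 9 genes were 0.59 to 1.32 on the log2 scale.

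On the minus strand, 8 tRNA genes summed to 1092 and 2734 counts in HET, against 3524 and 1929 counts in WT, with HET 2 and WT 1 again the higher libraries. mt-Ts1 (serine) held most of them: 645 and 1971 counts in HET, against 2574 and 1189 in WT (log2 -0.62 ± 0.68). It lies at chrM:6870-6938, next to the 3′ end of mt-Co1 on the opposite strand, and in human cells the mRNA of this gene keeps the antisense of this tRNA at its 3′ end. Without strand information, such mt-Co1 reads and mt-Ts1 cannot be told apart. The highest library was 1.27 times the lowest for mt-Co1 as deposited and 4.89 times the lowest for mt-Ts1.

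Of the other minus-strand tRNAs, mt-Tq (glutamine), which lies between mt-Ti and mt-Tm, held 67 and 105 counts in HET, against 197 and 244 in WT. Its levels were 4.35 and 7.79 CPM in HET, against 15.7 and 17.4 CPM in WT, without overlap (log2 -1.45 ± 0.46, adjusted p = 0.986). The log2 value kept its direction without each library in turn, between -1.99 and -1.14, but passed in none of these fits. mt-Te (glutamate), between mt-Nd6 and mt-Cytb, held 83 and 188 counts in HET, against 249 and 227 in WT (log2 -0.90 ± 0.54). mt-Tp (proline) held 66 and 90 counts in HET, against 89 and 101 in WT, and after scaling the genotypes did not overlap (log2 -0.38 ± 0.48). The remaining 4 minus-strand genes, mt-Ta, mt-Tn, mt-Tc and mt-Ty, held 30 to 182 counts in HET, against 22 to 165 in WT, and overlapped. If the libraries do not keep strand, precursor reads from the opposite strand could be counted under each minus-strand tRNA, mt-Tq included, and in their sum.

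**Figure D5:**
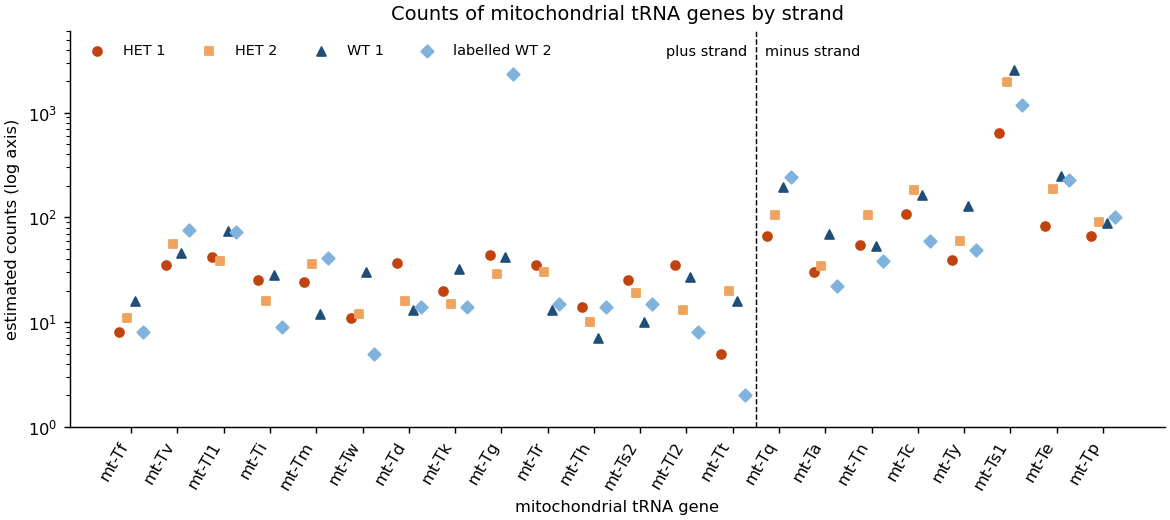
Estimated counts (log axis) of the 22 mitochondrial tRNA genes in HET 1 (circle), HET 2 (square), WT 1 (triangle) and the library labelled WT 2 (diamond), plus-strand genes left of the dashed line and minus-strand genes right of it. mt-Tg reaches 2328 counts in the library labelled WT 2 and 29 to 44 counts in the others, and mt-Ts1 is the highest gene of the minus strand in each library.

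The proteins that make, cut, keep and translate these RNAs are encoded in the nucleus. Of 257 genes tested in 14 lists, 0 passed in the edgeR test, 1 had an unadjusted p under 0.05, lower in HET, and DESeq2 called 1. Beside them stand 1.83% of all genes lower at that unadjusted p and 0.62% called by DESeq2, so neither count exceeds the background. Both were the same gene, Bnip3, from the list on mitophagy and hypoxia (6 genes tested, median log2 -0.14). Bnip3, a mitophagy receptor, stood at 12.3 and 11.4 CPM in HET, against 32.4 and 35.1 CPM in WT, without overlap (log2 -1.51 ± 0.32, adjusted p = 0.986, and 0.0454 in DESeq2). In the same list, the mitophagy kinase Pink1 stood at 21.1 and 18.1 CPM in HET, against 14.4 and 9.83 CPM in WT (log2 0.70 ± 0.38), and Bnip3l at a log2 value of -0.27 ± 0.36.

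Among 8 transcription genes tested, 7 stood above 0 (median log2 0.15, against 0.04 over all genes). Over all 21607 genes tested, 11392 stood above 0 and 10215 below. Without TMM scaling the median of all genes moves by 0.18, which is larger than the medians of most lists. The direction counts of the lists were not taken at that setting. Tfam, which packages mitochondrial DNA and opens its promoters, stood at 18.2 and 37.8 CPM in HET, against 29.9 and 23.6 CPM in WT (log2 0.07 ± 0.43). Polrmt, the polymerase, stood at 18.6 and 21.7 CPM in HET, against 22.7 and 21.7 CPM in WT (log2 -0.14 ± 0.32). Tfb2m, which melts the promoter, stood at 10.8 and 18.8 CPM in HET, against 15.9 and 9.47 CPM in WT (log2 0.22 ± 0.48). All 3 overlapped between genotypes. Smallest in p here were Tefm, an elongation factor (log2 0.82 ± 0.75), Mterf3 (0.30 ± 0.31) and Mterf1a (0.41 ± 0.63). Of 11 genes of mitochondrial DNA maintenance, 4 stood above 0 (median -0.08), with Tk2 at 0.55 ± 0.43, Top1mt at -0.65 ± 0.53 and Rnaseh1 at -0.49 ± 0.43.

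Of 24 RNA processing and modification genes, 17 stood below 0 (median -0.14), and 5 were lower in HET without overlap, close to the 15.9% of all genes tested. Elac2, which cuts the 3′ end of tRNAs, stood at 21.0 and 34.0 CPM in HET, against 35.8 and 20.4 CPM in WT (log2 -0.03 ± 0.42). 1110008L16Rik, the older symbol of Prorp, the nuclease of mitochondrial RNase P that cuts the 5′ end, stood at 2.53 and 4.38 CPM in HET, against 6.28 and 6.27 CPM in WT (log2 -0.86 ± 0.54). Trnt1, which adds the CCA end to tRNAs, stood at a log2 value of -0.34 ± 0.32 and the pseudouridine synthase Pus1 at -0.37 ± 0.37, and none of these genes passed.

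Of 9 genes of mRNA stability and decay, 5 stood below 0 (median -0.07). Lrpprc, which with Slirp binds and stabilises mitochondrial mRNAs, stood at 50.05 and 55.9 CPM in HET, against 79.8 and 75.1 CPM in WT, without overlap (log2 -0.55 ± 0.27, adjusted p = 0.986). Slirp stood at 9.61 and 12.3 CPM in HET, against 15.8 and 8.69 CPM in WT (log2 -0.16 ± 0.46), and overlapped. Rexo2, an exonuclease for short RNAs, stood at 30.9 and 31.9 CPM in HET, against 49.9 and 44.8 CPM in WT (log2 -0.59 ± 0.28), and the helicase Supv3l1 at a log2 value of -0.34 ± 0.37. The mRNAs themselves had a median of 0.04 as deposited and 0.07 with copies added.

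Of 13 translation factors, 7 stood below 0 (median -0.14), with Tsfm at -0.66 ± 0.54, Taco1 at -0.55 ± 0.54 and Gfm1 at -0.27 ± 0.27. Of 19 aminoacyl-tRNA synthetases, 14 stood below 0 (median -0.11), with Gars at -0.40 ± 0.28, Mars2 at 0.52 ± 0.41 and Iars2 at 0.33 ± 0.30. Lars2, the leucyl synthetase, named after its values were seen, stood at 20040 and 7856 CPM in HET, against 18270 and 16930 CPM in WT. The other 18 synthetases summed to 381 and 465 CPM in HET, against 463 and 449 CPM in WT. Counts given to Lars2 thus made up most of the list. mt-Rnr2 shares 42 of its words with nuclear transcripts. The search for copies asked for a match over most of a transcript's length, so it could miss a short shared stretch. Whether counts given to Lars2 include reads of mitochondrial rRNA was not tested, and the rRNA values, shares and ratios above leave Lars2 out. The 7 nuclear regulators had a median of -0.03, with Ppargc1a at 3.12 and 22.0 CPM in HET, against 8.19 and 4.27 CPM in WT (log2 1.01 ± 0.90), Gabpa at -0.34 ± 0.37 and Gabpb1 at -0.26 ± 0.32.

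The nuclear subunits of the respiratory complexes were summed for each complex. The complex I subunits (38 genes, median log2 0.00) stood at 1024 and 1669 CPM in HET, against 1468 and 1155 CPM in WT. Complex III (9 genes, median -0.07) stood at 333 and 569 CPM in HET, against 447 and 443 CPM in WT, and complex IV (14 genes tested, median 0.26) at 638 and 1126 CPM in HET, against 857 and 657 CPM in WT. Complex V (16 genes, median 0.01) stood at 1153 and 2025 CPM in HET, against 1602 and 1448 CPM in WT. HET 2 was highest and WT 1 second in all 4 sums with TMM scaling. HET 1 was lowest in all 4 with TMM scaling, but without it the library labelled WT 2 was below HET 1 for complex I (1082 and 1771 CPM in HET, against 1403 and 1059 CPM in WT) and complex IV (674 and 1195 CPM in HET, against 819 and 602 CPM in WT). In complex I the smallest p were those of Ndufa12 (log2 -0.88 ± 0.41), Ndufb11 (0.48 ± 0.31) and Ndufa4l2 (-0.99 ± 0.65), and in complex III those of Uqcrh (-0.51 ± 0.34), Uqcrc1 (0.41 ± 0.36) and Uqcrb (0.21 ± 0.35). In complex IV they were those of Cox7a2l (-0.67 ± 0.34), Cox5a (0.78 ± 0.46) and Cox7a2 (0.62 ± 0.41), and in complex V those of Atp5g1 (0.59 ± 0.48), Atp5k (-0.41 ± 0.42) and Atp5e (-0.42 ± 0.46).

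Of 78 mitochondrial ribosomal proteins, which sit on the 2 rRNAs, 51 stood below 0 (median -0.12), beside 10215 of 21607 genes tested. They summed to 1294 and 2268 CPM in HET, against 2241 and 1559 CPM in WT, with HET 2 and WT 1 high, as for mt-Rnr1 and mt-Rnr2. Mrpl48 stood at 64.7 and 71.6 CPM in HET, against 48.3 and 21.5 CPM in WT (log2 0.97 ± 0.43), Mrps18a at a log2 value of -0.77 ± 0.40 and Mrpl28 at -0.67 ± 0.36. RNAs retained in the nucleus were highest in HET 1, at a sum of 12240 and 8091 CPM in HET, against 9202 and 8042 CPM in WT. Malat1, named after its values were seen, made up most of it. The other 4 summed to 2193 and 1683 CPM in HET, against 1403 and 1200 CPM in WT. Neat1 stood at 1334 and 881 CPM in HET, against 727 and 520 CPM in WT (log2 0.83 ± 0.39), Kcnq1ot1 at a log2 value of 0.66 ± 0.40 and Meg3 at -0.47 ± 0.49. The part of these differences in the mitochondrial values was not tested.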

How the data were processed

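RNA of 4 sorted mouse mammary tumour samples was sequenced, 2 HET and 2 WT, grouped by genotype characteristic or title. The authors deposited estimated counts per gene, made with Salmon against GRCm38.p5 per the submitters' processing notes. Version, annotation and strandedness: not given in the sources used here. Salmon shares reads that match several transcripts between them, so genes with near-identical copies are uncertain. Totals were 12695132 to 15307939, so 3 counts, the upper limit of a count of 0, equal 0.19 to 0.24 CPM. Wilson intervals (95%) and this floor cover counting error only, and not the division of reads between a gene and its copy.

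Estimated counts were rounded and compared over all 4 libraries in edgeR 4.0.16 (R 4.3.3) with filterByExpr, TMM and the quasi-likelihood F test, genotype as the only term, after a test on simulated data. The common biological coefficient of variation was 0.46. P-values were adjusted (Benjamini-Hochberg) over 21607 genes. The SE is the log2 fold change over the square root of F. Ratios and shares were tested by exact two-sided permutation. Nuclear copies were found with BLAST 2.17.0 among GENCODE M21 transcripts, and their counts were added to the gene they copy in a second fit. No symbol was found for 193 identifiers, and 0 columns belonged to other samples.

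Named were all mitochondrial mRNAs and rRNAs, tRNAs with 10 counts in 2 libraries (all 22 met this), the 3 members of smallest p in each of 14 nuclear lists, and Tfam, Polrmt, Tfb2m, Lrpprc, Slirp, Elac2 and Elf5. Lars2 and Malat1 were named after their values were seen. Members, lists and tests were chosen with earlier results of these data known. Alternatives were other scalings (relative log expression, upper quartile, library size only, libraries without mitochondrial genes), filters (none beyond 1 count, 1 CPM in 2 libraries), DESeq2 1.42.0, limma-voom (limma 3.58.1), an adjusted p of 0.1, protein-coding genes alone, other denominators for the shares and ratios, added copies and leaving out each library. Added copies together with leaving out each library was chosen after seeing the data.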

Additional observations from a re-analysis of the deposited data

How the results depend on the processing

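With all 4 libraries, 0 of the 37 mitochondrial genes passed in edgeR under every scaling tried, the filter of 1 CPM, an adjusted p of 0.1, and in DESeq2 and limma-voom. With no filter beyond 1 count the number was 1, mt-Tg (324 of 43097 genes passed then). Without each library in turn it was 0 to 1, also with copies added, and the 1 was again mt-Tg, without WT 1, where 657 of all genes passed. DESeq2 passed 134 of all genes. Of the nuclear genes, 0 passed without each library, and 1, Bnip3, passed in DESeq2.

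The rRNA to mRNA ratio had a log2 value of -0.23 with copies added, against -0.087, and -0.115 to -0.058 without each library. Per kilobase it was -0.051 as deposited and -0.238 with copies added. The mt-Nd6 ratio ran from -0.047 (without WT 1) to 0.60 (without the library labelled WT 2), the mitochondrial share from -0.16 to 0.28 and the 16S to 12S ratio from -0.193 to 0.045.

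Several log2 fold changes turned sign, with the cause not tested. With library size only, these were mt-Rnr1 (0.086), mt-Rnr2 (0.008), mt-Co3 (0.14), Polrmt (0.042), Slirp (0.015) and Elac2 (0.14). With nuclear copies added, these were mt-Co2 (0.039), mt-Atp6 (0.33) and mt-Nd3 (0.066). With no filter beyond 1 count, these were mt-Atp8 (-0.007), mt-Nd5 (-0.025), mt-Cytb (-0.035) and Tfam (-0.008). With upper-quartile scaling, these were mt-Co3 (0.041) and Elac2 (0.043). With limma-voom, this was Tfam (-0.026).

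Without each library in turn, the lone library being assumed to vary like the other genotype, the log2 fold changes that turned sign ran over these ranges: mt-Rnr1 (-0.43 to 0.15), mt-Co1 (-0.026 to 0.32), mt-Co2 (-1.10 to 0.22), mt-Atp8 (-0.27 to 0.42), mt-Atp6 (-2.30 to 0.23), mt-Co3 (-0.30 to 0.29), mt-Nd3 (-1.37 to 0.49), mt-Nd4 (-0.16 to 0.37), mt-Nd5 (-0.11 to 0.11), mt-Nd6 (-0.13 to 0.29), mt-Cytb (-0.27 to 0.25), mt-Ts1 (-1.83 to 0.15), Tefm (-0.17 to 1.54), Top1mt (-1.10 to 0.023), Ppargc1a (-1.04 to 1.78), Gabpa (-0.70 to 0.16), Uqcrb (-0.28 to 0.48), Cox5a (-0.066 to 1.22), Atp5g1 (-0.15 to 1.02), Bnip3l (-0.63 to 0.20), Meg3 (-1.14 to 0.15), Tfam (-0.61 to 0.45), Tfb2m (-0.29 to 0.64), Slirp (-0.52 to 0.33), Elac2 (-0.47 to 0.43) and Elf5 (-2.16 to 0.76). With copies added they were mt-Co1 (-0.047 to 0.40), mt-Co2 (-0.30 to 0.43), mt-Co3 (-0.27 to 0.31), mt-Nd3 (-0.33 to 0.33), mt-Nd4 (-0.16 to 0.37) and mt-Nd5 (-0.11 to 0.11). The sums of mt-Atp6 and mt-Nd4l with their copies stayed above 0 in these fits.

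No paired analysis was made. The numbers in the titles are consecutive for a WT library and both HET libraries, but no label states that a HET and a WT tumour form a pair. Replicate numbers were given in accession order.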

Other observations

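The chromosome 2 copies Gm13339 and Gm13340, which differ from mt-Nd2 and mt-Co1 at 17 and 37 bases, held 84 and 95 counts in HET 1 and 140 and 173 in HET 2, against 75 and 242 in WT 1 and 53 and 133 in the library labelled WT 2. These copies stayed at no more than 1.0% of their pairs in any library, unlike the chromosome 1 copies of mt-Atp6, mt-Nd3 and mt-Co1.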
